A study of Mus musculus with 4 samples.

Results

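The genes that encode the receptors for serotonin, dopamine, noradrenaline and adrenaline, histamine, and acetylcholine at its muscarinic sites were followed in mouse embryonic stem cells (ESC) treated with MS-275. They were taken by symbol, as every listed gene named Htr, Drd, Adra, Adrb, Chrm or Hrh with a receptor number. This gave 37 of the 28250 genes in the deposited profiles, made up of 14 serotonin, 5 dopamine, 6 alpha-adrenergic, 3 beta-adrenergic, 5 muscarinic and 4 histamine receptor genes. The cells were TBV2, a mouse ESC line that depends on a feeder layer, and all of them were cultured with LIF, a cytokine that holds ESC undifferentiated. One group received solvent for 24 h (2 libraries) and the other 5 µM MS-275, an inhibitor of class I histone deacetylases, for 24 h (2 libraries). The sources used here do not say whether the RNA came from the wild-type or the EGFP-carrying form of the line, whether feeder cells were removed before lysis, or whether the replicates were separate cultures, so the p-values measure only the spread between these libraries. Since whole cultures were lysed, more cells with a transcript and more transcript per cell cannot be told apart.

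Almost all of these receptors are G protein-coupled receptors with 7 membrane-spanning helices. The Htr3 subunits are the exception and form a ligand-gated ion channel. Receptors coupled to Gs raise cyclic AMP through adenylyl cyclase, receptors coupled to Gi/o lower it, and receptors coupled to Gq act through phospholipase C. They are best known from neurons, heart, smooth muscle and fat, and many of their genes lie silent in most other cells, which makes them a family in which low transcript levels have to be read against the depth of the libraries.

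Each gene has a normalized expression value per library, which the authors made with Genomatix after mapping to mm9. It is a signal and not a count, its formula is not stated, and it is compared here only within a gene. The 4 libraries summed to between 2489.6 and 4359 over all genes. They rest on between 9785619 and 23467935 deposited alignments, which give between 9122347 and 10973569 distinct start positions. Fewer positions per library leave a wider counting error on these genes, most of which were low. Of the 37 receptor genes, 19 and 18 reached a value of 0.001 in the solvent libraries and 30 and 27 in the MS-275 libraries. In 1 library of each condition the alignments held no repeated position, while in the other 53.2% (solvent) and 54.4% (MS-275) of them repeated one. Within a condition, values and alignments appear to be exchanged between the replicates: whether a receptor gene was at 0 differed in 0 of 148 comparisons when the replicates were crossed, and in 20 of 148 (13.5%) when they were not. Across 21969 genes these shares were 1.09% and 6.23%. The crossing stays within a condition, so alignment positions are given as sums over the 2 libraries of a condition, and replicate numbers are those of the values.

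The deposited values were higher in both MS-275 libraries than in both solvent libraries for 20 of the 37 receptor genes (54.1%) and lower in both for 0. Over all 28250 genes, 26.1% were higher in this sense and 9.09% lower. By the stricter rule of at least 2-fold in both replicate pairs, with values under 0.001 set to 0.001, 11 receptor genes were higher (29.7%) and 0 lower, beside 11.5% and 2.04% of all genes. The count depends on the floor: with values under 0.01 set to 0.01, 1 receptor gene (2.7%) was higher, beside 4.47% of all genes. Among the 11 at the lower floor were Adra2a, Adra2b, Adra2c, Drd1a, Drd3, Drd4, Htr4, Htr5b, Chrm3 and Chrm4. In the plot of values by library, the MS-275 points of these genes lie to the right of both solvent points.

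**Figure D1:**
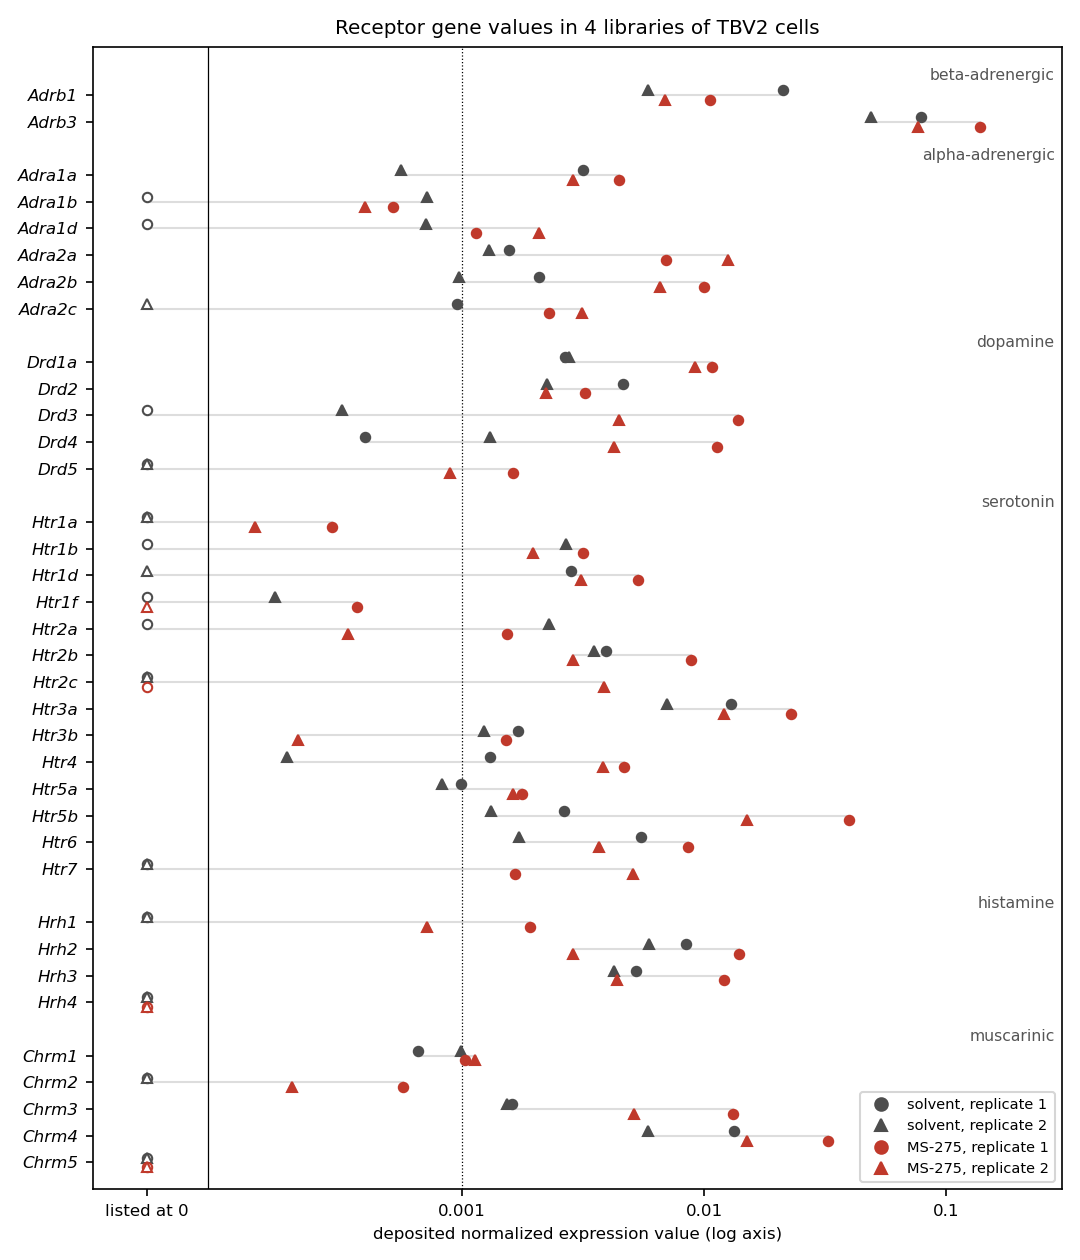
Deposited normalized expression values (log axis, no unit) of 36 of the receptor genes, grouped by family, in solvent (grey) and MS-275 (red) libraries; circles are replicate 1, triangles replicate 2, open symbols left of the solid line are values listed at 0, and the dotted line marks 0.001. Adrb3 has the highest solvent values shown, and for Htr5b and Drd3 both red symbols lie to the right of both grey ones.

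Of the 37 genes, 28 reached 0.001 in at least 2 libraries and were tested with limma on log2(value + 0.005), together with all other genes that did so (20336 in all). Of these 28, 6 passed this filter through the MS-275 libraries alone (Adra1d, Adra2c, Chrm1, Drd3, Htr5a and Htr7). A gene of that kind had to be higher with MS-275 to be tested, so its call is given as a value and no weight is put on it. Since many values lie near or below the pseudocount of 0.005, a fold change on this scale understates the change of low genes. When only the group means were compared, 0 of the 28 passed an adjusted p of 0.05 in either direction, as did 0.00492% of all genes as higher and 0% as lower. At an unadjusted p under 0.05, 11 of the 28 receptor genes were higher and 0 lower, beside 2974 and 564 of the 20336 genes tested. With the replicate number as a block, 12 passed as higher and 0 as lower, beside 21% and 6.46% of all genes tested. On 4 libraries this fit leaves hardly any residual spread of a gene's own. Its error rests largely on the trend over all genes, so its adjusted p-values are to be read with caution. As shares, these 12 are 42.9% of the receptor genes tested and 32.4% of all 37, and they include Drd3 and Htr7. With quantile normalization in the blocked fit 4 passed (14.3%), beside 13.9% of all genes, and with median-ratio scaling 10 (35.7%), beside 16.7%. The direction of each of the 12 was the same under every scaling, pseudocount and filter tried. These fits reuse the same 4 libraries, and the 12 were chosen as higher in the blocked fit, so this is a description. For Drd3 and Htr7 the filter had already set the direction. Htr5b and Adra2a passed in all 6 fits with a block, quantile normalization included. These 6 include the fit on alignment positions, which both genes entered through the MS-275 libraries alone, so no weight is put on that fit. The median log2 difference of the receptor genes tested was 0.52, beside 0.20 for all genes tested. Median-ratio scaling moved these medians to 0.44 and 0.03, and quantile normalization moved them to 0.21 and -0.02. Without the filter on low values they were 0.36 for the 37 receptor genes and 0.06 for all 28250 genes. A plot of the fold changes shows the blocked fit for the values and for alignment positions side by side.

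**Figure D2:**
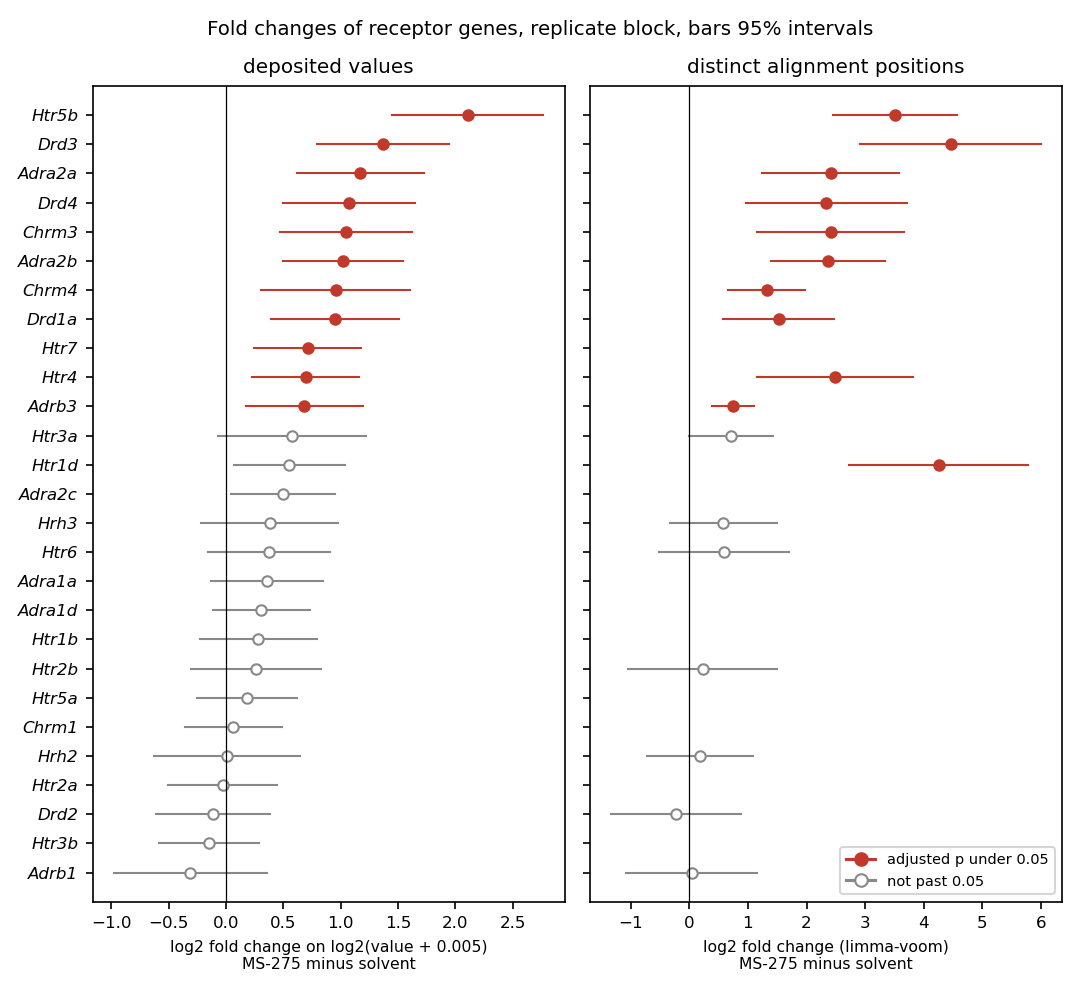
Log2 fold changes (MS-275 minus solvent) of receptor genes with 95% intervals from limma with the replicate block, for deposited values on log2(value + 0.005) on the left (27 genes shown) and for distinct alignment positions on the right (18 genes shown); red filled points passed an adjusted p of 0.05. Among the genes shown, Htr5b has the highest value on the left (2.11) and Drd3 on the right (4.45), and no red point lies below 0.

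The beta-adrenergic receptors couple to Gs. Adrb3, the receptor known for lipolysis and heat production in fat, had values of 0.0782 and 0.0488 with solvent and 0.138 and 0.0760 with MS-275. Its groups overlapped, since the lower MS-275 value lay below the higher solvent value, but it was higher with MS-275 within each replicate number (1.76 and 1.56 times). It passed with the block (log2 fold change 0.68, SE 0.24, adjusted p = 0.0446 from limma) and not without it (0.566), and it passed in 3 of the 6 fits with a block, where its adjusted p ran up to 0.170. Adrb1, the main receptor of heart muscle, had values of 0.0211 and 0.00588 with solvent and 0.0105 and 0.00689 with MS-275. The ratio was 0.498 in replicate 1 and 1.17 in replicate 2, and the 95% interval of its log2 fold change ran from -0.98 to 0.35.

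Among the alpha-adrenergic genes, the alpha-2 receptors couple to Gi/o and, on nerve endings, restrain the release of noradrenaline. Adra2a (chr19:54119672-54123472 of mm9, plus strand) had values of 0.00156 and 0.00130 with solvent and 0.00697 and 0.0126 with MS-275, 4.47 and 9.65 times higher within the replicate numbers, without overlap (log2 fold change 1.17, SE 0.26, adjusted p = 0.00368 from limma with the replicate block, up to 0.0446 over the 6 fits with a block, and 0.116 without it). Adra2b went from 0.00208 and 0.00097 to 0.01001 and 0.00660, again without overlap (log2 fold change 1.02, SE 0.25, adjusted p = 0.00615 from limma with the block, up to 0.0829 over the fits with a block, and 0.138 without it). Adra2c was listed at 0.00096 and 0 with solvent and at 0.00229 and 0.00313 with MS-275, which met the 2-fold rule but not the test (adjusted p = 0.0988 from limma with the block). The alpha-1 receptors, which couple to Gq and contract smooth muscle, stayed at or below 0.00445 in every library. Adra1a and Adra1d were tested and did not pass (adjusted p = 0.267 and 0.276 from limma with the block), although both MS-275 values of Adra1d (0.00115 and 0.00209) lay above both solvent values (0 and 0.00071). Adra1b did not reach 0.001 in any library. The difference between the subfamilies was not tested.

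Of the 5 dopamine receptor genes, 3 of the 4 tested passed as higher with the block, beside 21% of all genes tested. Of these 3, Drd3 entered the test through the MS-275 libraries alone, so no weight is put on its call. Drd3 (chr16:43762334-43823045 of mm9, plus strand), a Gi/o-coupled receptor of limbic brain regions, was listed at 0 and 0.00032 with solvent and at 0.0139 and 0.00447 with MS-275. Drd4, also Gi/o-coupled, went from 0.00040 and 0.00131 to 0.0113 and 0.00423. Drd1a, the Gs-coupled receptor of the direct pathway of the striatum, went from 0.00267 and 0.00278 to 0.0108 and 0.00913. For all 3 genes both MS-275 values lay above both solvent values, by at least 3.23 times within each replicate number when values under 0.001 are set to 0.001. The log2 fold changes were 1.07 for Drd4 and 0.95 for Drd1a, with adjusted p of 0.00813 and 0.0139 from limma with the block and of 0.136 and 0.210 without it. Over the fits with a block these reached at most 0.0794 and 0.224. Drd3 was tested through its MS-275 values alone, and its log2 fold change ran from 0.51 to 2.97 between pseudocounts of 0.02 and 0.001. Drd2, the Gi/o-coupled receptor targeted by antipsychotic drugs, had 0.00462 and 0.00225 with solvent and 0.00324 and 0.00223 with MS-275, with overlapping groups and a 95% interval of the log2 fold change from -0.61 to 0.38. Drd5, Gs-coupled like Drd1a, was listed at 0 in both solvent libraries and at 0.00163 and 0.00089 with MS-275, and was too low to be tested.

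Among the 14 serotonin receptor genes, Htr5b had the highest ratios within both replicate numbers. It is a receptor gene that is intact in rodents and disrupted in humans, and it lies at chr1:123406419-123425042 of mm9 on the minus strand with 2 exon blocks. Its values were 0.00264 and 0.00132 with solvent and 0.0398 and 0.0151 with MS-275, 15.1 and 11.4 times higher within the replicate numbers and without overlap. On log2(value + 0.005) the log2 fold change was 2.11 (SE 0.31, adjusted p = 0.000142 from limma with the block, up to 0.00139 over the fits with a block, and 0.0892 without it), and it ran from 1.06 to 3.14 between pseudocounts of 0.02 and 0.001. Its relative Htr5a did not pass (adjusted p = 0.552 with the block from limma), at 0.00178 or less in every library. Htr4, a Gs-coupled receptor of gut and brain, went from 0.00131 and 0.00019 to 0.00469 and 0.00384 (log2 fold change 0.69, SE 0.22, adjusted p = 0.0290 from limma with the block, up to 0.185 over the fits with a block, and 0.163 without it). Htr7, Gs-coupled as well, was listed at 0 in both solvent libraries and at 0.00166 and 0.00507 with MS-275. It was tested through its MS-275 values alone and passed in 3 of 5 fits with a block, which is given as a description.

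Htr3a encodes the obligatory subunit of the serotonin-gated channel and was the highest serotonin receptor gene with solvent, at 0.0129 and 0.00702, against 0.0229 and 0.0121 with MS-275. It was 1.78 and 1.72 times higher within the replicate numbers, its groups overlapped, and it did not pass (log2 fold change 0.57, 95% interval -0.07 to 1.22, adjusted p = 0.173 from limma with the block). Htr3b, the partner subunit, was at or below 0.00170 in all libraries. The remaining serotonin genes, Htr1a, Htr1b, Htr1d, Htr1f, Htr2a, Htr2b, Htr2c and Htr6, did not pass on the values with or without the block, and the highest value among them was 0.00881, for Htr2b. Htr2c was listed at 0 in 3 libraries and at 0.00386 in MS-275 replicate 2.

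The muscarinic receptors have odd-numbered members coupled to Gq and even-numbered members coupled to Gi/o. Chrm4 (chr2:91762346-91769986 of mm9, plus strand) had the highest values, 0.0133 and 0.00585 with solvent and 0.0325 and 0.0150 with MS-275, which is 2.44 and 2.56 times higher within the replicate numbers and without overlap. Its log2 fold change was 0.96 (SE 0.31, adjusted p = 0.0292 from limma with the block, up to 0.333 over the fits with a block, and 0.526 without it). Chrm3, the receptor of glands and smooth muscle, went from 0.00161 and 0.00153 to 0.0132 and 0.00513 (log2 fold change 1.05, SE 0.27, adjusted p = 0.00918 from limma with the block, up to 0.104 over the fits with a block, and 0.176 without it). Chrm1 stayed between 0.00066 and 0.00113 and did not pass (adjusted p = 0.849 from limma with the block). Chrm2, the receptor that slows the heart, was listed at 0 with solvent and at 0.00057 or less with MS-275, and Chrm5 was listed at 0 in all 4 libraries.

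None of the 2 histamine receptor genes tested passed in either direction (Hrh2 and Hrh3, adjusted p = 0.982 and 0.337 from limma with the block). At an unadjusted p under 0.05 neither passed, and neither passed on alignment positions. Hrh2, the Gs-coupled receptor of gastric acid secretion, had 0.00841 and 0.00593 with solvent and 0.0139 and 0.00287 with MS-275, so that it was 1.66 times higher in replicate 1 and 0.484 times in replicate 2. Hrh3, a presynaptic Gi/o-coupled receptor, had 0.00525 and 0.00423 with solvent and 0.0121 and 0.00437 with MS-275, and its groups overlapped. The 95% intervals of the log2 fold change ran from -0.63 to 0.65 for Hrh2 and from -0.21 to 0.98 for Hrh3. Hrh1 was listed at 0 with solvent and at 0.00192 and 0.00072 with MS-275, and Hrh4, a receptor of blood cells, was listed at 0 in all 4 libraries, as were 4500 of the 28250 genes.

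The values say nothing of the depth behind them, so distinct alignment positions on the exons of GENCODE M1 were counted on mm9. This is another readout of the same libraries and not an independent experiment. Over the 37 genes, 999 positions fell on exons with solvent and 2373 with MS-275, from 20759188 and 20037997 distinct positions in all. Adrb3 held 440 of them with solvent and 716 with MS-275. In contrast, 20 genes had fewer than 10 positions with solvent and 8 had none, while 11 had fewer than 10 with MS-275 and 2, Chrm5 and Hrh4, had none in either condition. With 0 positions, up to 3 are allowed by counting error. The exact intervals on positions cover counting error only, while those from limma-voom also rest on the spread between libraries.

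Of the 19 receptor genes with at least 10 positions in at least 2 libraries, 12 passed as higher in limma-voom with the replicate block and 0 as lower, beside 31.3% and 14.3% of the 15146 genes tested. Of these 12, 8 had fewer than 10 positions in both solvent libraries (Adra2a, Adra2b, Chrm3, Drd3, Drd4, Htr1d, Htr4 and Htr5b). They entered the test through the MS-275 libraries alone, where they are high, so the count is a description and no weight is put on it. Without the block, 9 passed as higher and 0 as lower, beside 16.9% and 5.86%. The 12 calls shared 11 genes with the 12 calls on the values (91.7% of each list). Htr7 was called on the values only, having been too low for the test on positions, and Htr1d was called on positions only. Htr1d, a Gi/o-coupled receptor targeted by migraine drugs, had 1 position with solvent and 32 with MS-275 (ratio 33.2, exact 95% interval 5.54 to 1350), and values of 0.00282 and 0 against 0.00536 and 0.00310. Leaving out 1 library leaves 1 library in its condition, so no weight is put on counts of calls from such fits.

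The sums of positions show how the calls rest on counts. Htr5b had 11 positions with solvent and 133 with MS-275, a log2 fold change of 3.51 (SE 0.51) in limma-voom with the block. Drd3 had 1 and 37 (ratio 38.3, exact 95% interval 6.47 to 1554), so that its size is poorly fixed. Adra2b had 17 and 87, Adra2a 10 and 53, Chrm3 8 and 45, Drd4 7 and 33, Htr4 6 and 37, Drd1a 23 and 62, and Chrm4 65 and 157. Adra2c, which did not pass on the values, had 3 and 22 (ratio 7.60, exact 95% interval 2.28 to 39.6). For Htr7, none were seen with solvent and 27 with MS-275, which is at least 9.32-fold higher against 3 positions over the group, leaving the counting error of the 27 aside. Drd5 had 0 with solvent and 10 with MS-275. Htr2c had 0 and 13, and all 13 fell in 1 MS-275 library, so that without this library no difference is left. Adra1a, not called, had 8 and 29. Counts were close for Adrb1 (23 and 23), Drd2 (25 and 20), Hrh2 (43 and 48) and Htr2b (21 and 24).

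Per kb of exon, the highest with solvent was Adrb3 (mean of 2 libraries 76.0 positions per kb), and high levels were also found for Htr3a (14.2), Chrm4 (11.7) and Hrh2 (7.71), and the median receptor gene had 1.26. With MS-275 high levels were found for Adrb3 (124), Htr5b (34.4), Chrm4 (28.4) and Htr3a (22.3), and the median was 3.97. The libraries of Htr5b and Chrm4 overlapped with MS-275, so that these neighbours did not differ beyond their spread. Htr5b moved from rank 13 of 37 to rank 3 and Drd3 from rank 27 to rank 6. Outside genes, 0.307 and 0.256 positions per kb were found in the solvent libraries and 0.411 and 0.354 in the MS-275 libraries, a level that was itself higher with MS-275. Exons of 20 receptor genes lay above it in both solvent libraries and of 29 in both MS-275 libraries. The part of reads from outside annotated exons in the small counts was not tested. In the plot of positions per kb most genes lie above the line of equal density, and Hrh2 (7.71 to 8.61) lies close to it.

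**Figure D3:**
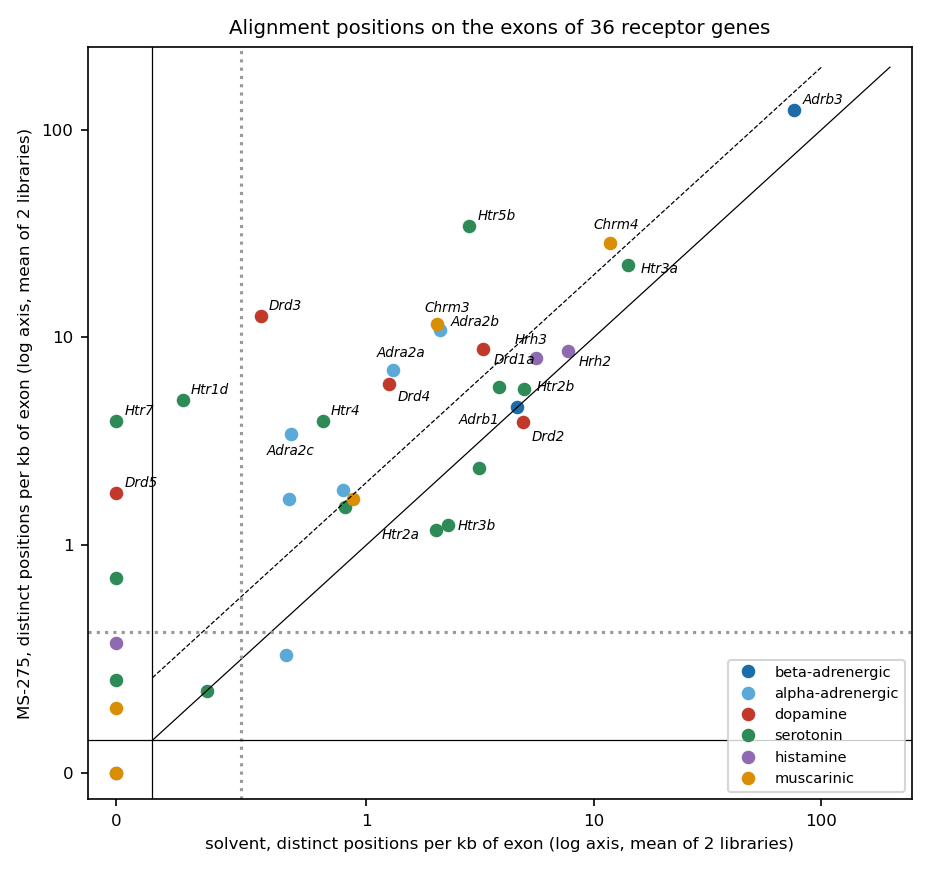
Distinct alignment positions per kb of exon (log axes with 0 set apart, mean of 2 libraries) of 36 of the receptor genes with solvent (horizontal) and MS-275 (vertical), coloured by family; the solid line is equal density, the dashed line 2 times the solvent density, and the dotted lines the level outside genes. Htr5b (2.84 to 34.4) and Drd3 (0.344 to 12.7) lie far above the dashed line, while Adrb1, Drd2 and Hrh2 lie near the solid one.

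For some receptor genes the count is shared with other transcripts, and the protocol as described does not mark the strand. Htr2b lies inside Psmd1, and its exons (4.93 positions per kb with solvent, 5.63 with MS-275) were covered at densities close to those of its introns (4.72 and 5.46), so its low value cannot be told apart from reads of Psmd1. The introns of Adrb3 held 31.0 positions per kb with solvent and 29.9 with MS-275, a level that did not follow the rise on its exons. Htr1b shares 852 of 1273 exon bases and Drd5 1386 of 2802 with an antisense long noncoding RNA, while Chrm4 shares 25 of 2768 with the antisense gene Mdk.

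What the genes have in common beyond their ligands was set beside the calls, as a description chosen with their values known. They lie on 15 chromosomes. Of the 10 genes with a single exon block, 4 passed on the values with the block and 7 had groups that did not overlap, against 8 and 13 of the 27 with more exons. Over all genes, 21% of those tested passed as higher with the block, and 26.1% of those listed were higher with MS-275 without overlap. By the G protein they are known to couple to, 5 of 8 tested Gs-coupled genes passed with the block (among them Adrb3, Drd1a, Htr4 and Htr7). So did 5 of 11 Gi/o-coupled ones (Adra2a, Adra2b, Chrm4, Drd3 and Drd4). Of the Gq-coupled ones 1 of 6 passed (Chrm3), a share near that of all genes. Htr7 and Drd3 entered the test through the MS-275 libraries alone, so no weight is put on their calls. Of the 2 ion channel subunits, 0 passed, and at an unadjusted p under 0.05 neither Htr3a nor Htr3b passed with the block. Htr5b, whose coupling is not assigned here, passed as well. Differences between these classes were not tested.

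Promoter sequences, windows of 300 bases that span the transcription start, were taken from RefSeq (GRCm38.p6) and matched 28 of the 37 genes with 36 promoters. Those without an entry included Adra1a, Adra1d, Adrb3, Chrm1, Hrh4, Htr3a, Htr4 and Htr5b. The 36 promoters held a median of 14.5 CpG dinucleotides, beside 7 in all 32851 mouse promoters of this length. A GC box (GGGCGG, either strand) was found in 61.1% of them and in 35.7% of all promoters, a TATA box (TATAAA, either strand) in 2.78% and 13.6%, and CCAAT (either strand) in 33.3% and 37.4%. The cAMP response element TGACGTCA, which reads the same on both strands, was in 0% and 1.79%. The left and right parts of the binding motif of the neuronal repressor REST, TTCAGCACC and GGACAG on either strand, were in 0% and 0.371% and in 30.6% and 22.2%. No searched motif contains another. Promoters of genes that passed with the block ran from 2 to 46 CpG (median 23, 9 promoters of 8 genes) and those of the others from 2 to 47 (median 13, 27 promoters of 20 genes). The sequences of 3 genes that rose and 1 that did not are given to show that CpG-rich and CpG-poor starts occur among genes that rose and that a CpG-rich start also occurs without a rise. Adra2a (chr19:54045009-54045308, plus strand, 28 CpG, the only one of the 36 with TATAAA), Chrm4 (chr2:91921939-91922238, plus strand, 30 CpG) and Drd3 (chr16:43761971-43762270, plus strand, 2 CpG) rose, and Drd2 (chr9:49340153-49340452, plus strand, 23 CpG) did not pass. Capitals mark the CpG dinucleotides.
Adra2a: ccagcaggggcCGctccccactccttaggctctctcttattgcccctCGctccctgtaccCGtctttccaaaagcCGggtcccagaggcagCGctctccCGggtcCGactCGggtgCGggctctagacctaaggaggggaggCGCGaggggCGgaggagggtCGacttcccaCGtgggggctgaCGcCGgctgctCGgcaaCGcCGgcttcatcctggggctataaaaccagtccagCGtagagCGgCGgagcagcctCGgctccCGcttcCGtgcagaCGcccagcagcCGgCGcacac
Chrm4: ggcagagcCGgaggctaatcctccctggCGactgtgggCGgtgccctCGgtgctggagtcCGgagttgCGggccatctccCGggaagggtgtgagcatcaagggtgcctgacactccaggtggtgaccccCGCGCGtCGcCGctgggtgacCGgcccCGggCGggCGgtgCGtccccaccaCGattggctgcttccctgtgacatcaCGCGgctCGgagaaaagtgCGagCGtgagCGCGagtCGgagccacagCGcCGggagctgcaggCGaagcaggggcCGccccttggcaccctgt
Drd3: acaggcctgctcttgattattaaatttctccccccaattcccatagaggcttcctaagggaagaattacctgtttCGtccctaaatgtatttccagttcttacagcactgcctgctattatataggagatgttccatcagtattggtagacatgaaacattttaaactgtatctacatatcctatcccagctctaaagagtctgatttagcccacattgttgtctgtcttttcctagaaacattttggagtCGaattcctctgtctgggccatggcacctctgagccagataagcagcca
Drd2: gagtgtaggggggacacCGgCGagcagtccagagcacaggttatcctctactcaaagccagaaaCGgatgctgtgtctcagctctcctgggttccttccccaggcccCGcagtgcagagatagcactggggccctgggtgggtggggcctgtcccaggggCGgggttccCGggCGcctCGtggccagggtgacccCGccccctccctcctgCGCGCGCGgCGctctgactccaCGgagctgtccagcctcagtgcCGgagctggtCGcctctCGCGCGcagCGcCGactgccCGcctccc

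The rest of the pathway was read from gene lists. Their calls come from the fit with the block, in which 21% of all genes passed as higher and 6.46% as lower. Without the block, limma called 0 genes of any list. Before adjustment 24 of the 104 different genes tested were below 0.05 as higher and 4 as lower, beside 2974 and 564 of all 20336 genes tested. Among the enzymes that make the ligands, 6 of 11 tested passed as higher with the block and 1 as lower. Tph1, the rate-limiting enzyme of serotonin synthesis outside the brain, rose from 0.00198 and 0.00074 to 0.0512 and 0.0222 (log2 fold change 2.63, adjusted p = 2.59e-05 from limma with the block). Gch1, which starts the synthesis of the cofactor of these hydroxylases, rose by 1.87 on the log2 scale (adjusted p = 0.000105 from limma with the block). Ddc, the decarboxylase that completes serotonin and dopamine, went the other way, from 0.193 and 0.218 to 0.0541 and 0.0305, where it fell by 2.20 on the log2 scale (adjusted p = 2.47e-05 from limma with the block). Qdpr, the other gene at the lower end of the list, had a log2 fold change of -0.26 and did not pass. Without the block the lowest adjusted p of limma on this list was 0.0612, for Ddc, followed by 0.0655 for Tph1.

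Among the transporters, 4 of 9 tested passed as higher with the block and 0 as lower. The highest were Slc29a4, a low-affinity monoamine transporter (log2 fold change 1.06), and Slc6a3, the dopamine transporter (0.84). Among these 4, Slc22a3 lay under 0.001 in both solvent libraries and entered the test through the MS-275 libraries alone. No weight is put on its call. Slc18a1 (-0.47) was lowest and did not pass on the values, but passed as lower on positions (log2 fold change -1.47, adjusted p = 0.00731 from limma-voom with the block). Of the 6 transporters tested on positions, 5 passed as higher and 1 as lower, beside 31.3% and 14.3% of all genes. Among the breakdown enzymes, 3 of 8 passed as higher with the block and 1 as lower: Bche, a cholinesterase (1.17), and Hnmt, which methylates histamine (0.85), were highest and Comtd1 was lowest (-1.36, adjusted p = 0.00114 from limma with the block). Of the 13 G protein alpha subunits, 3 passed as higher with the block, a share near that of all genes, and 0 as lower, with Gnaz (1.44) and Gnao1 (1.07), both of the Gi/o class, at the top and Gna13 (-0.43) and Gna14 (-0.42) at the lower end without passing. Adenylyl cyclases and phospholipases C beta gave 2 higher and 0 lower of 12 with the block, again near the share of all genes, Adcy2 (1.42) and Adcy5 (0.93), with Plcb4 (-0.47) and Adcy1 (-0.45) lowest and not past this test. The receptor kinases and arrestins gave 2 higher and 0 lower of 7 with the block, Grk5 (1.75) and Grk4 (0.80), with Adrbk1 (-0.63) and Grk6 (-0.19) lowest and not past this test. On positions, 4 of these genes passed as lower, with adjusted p from limma-voom with the block of 0.00547 for Gna13, 0.0184 for Plcb4, 0.0386 for Adcy1 and 0.0220 for Adrbk1. Positions gave 6 higher and 1 lower of 13 subunits, 3 and 2 of 11 cyclases and phospholipases, and 3 and 1 of 7 kinases and arrestins, beside 31.3% and 14.3% of all genes.

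Other receptors for related ligands were read in the same way. Of the 13 nicotinic acetylcholine receptor subunits tested, which form ion channels, 5 passed as higher with the block and 0 as lower. They were led by Chrna5 (log2 fold change 1.83) and Chrnb4 (1.68). Among these 5, Chrna3 and Chrne lay under 0.001 in both solvent libraries and entered the test through the MS-275 libraries alone. No weight is put on their calls. Those at the lower end were Chrnb2 (0.16) and Chrnb1 (0.22), which did not pass. None of the 15 trace amine receptor genes, relatives of the monoamine receptors that lie in a cluster and include olfactory receptors, reached 0.001 in 2 libraries, so 0 were tested, and 10 were listed at 0 in all 4 libraries. The medians of these lists lay between 0.19 for cyclases and phospholipases and 0.64 for the synthesis enzymes, beside 0.52 for the receptor genes and 0.20 for all genes tested. The plot by gene list shows the spread of each.

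**Figure D4:**
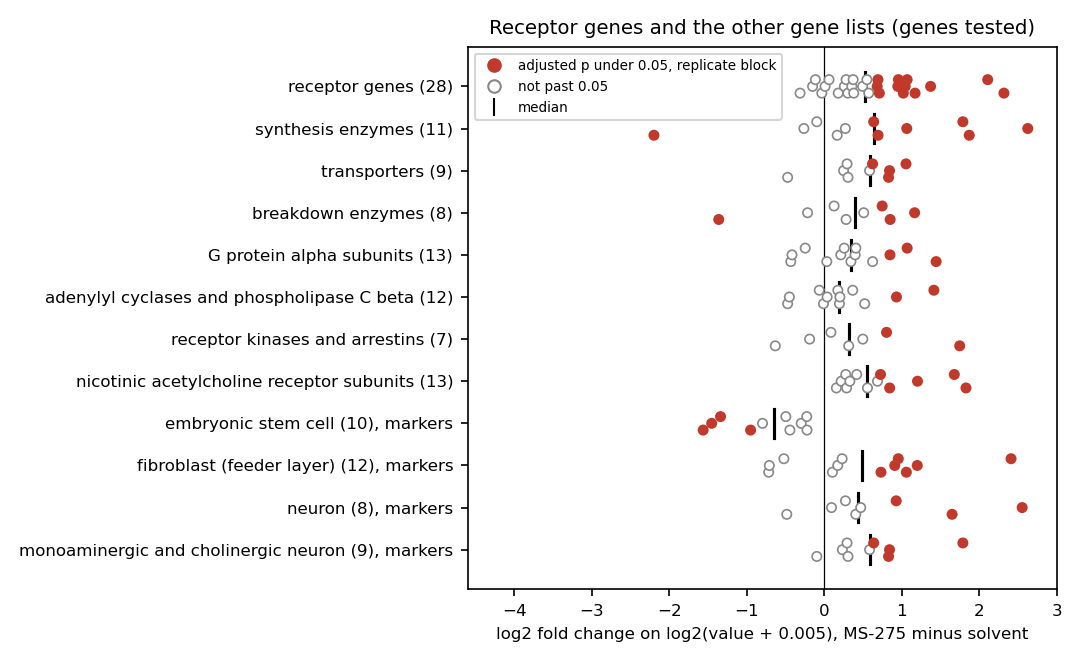
Log2 fold changes on log2(value + 0.005), MS-275 minus solvent, of the receptor genes and 11 other gene lists (genes tested in brackets); red points passed an adjusted p of 0.05 in limma with the replicate block, open points did not, and bars are medians. The receptor genes have a median of 0.52 and no red point below 0, and the ESC markers have a median of -0.65.

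Markers of cell types were read with the same block. Of 10 ESC markers, 4 passed as lower and 0 as higher with the block, led by Fgf4 (log2 fold change -1.56) and Utf1 (-1.45), and their summed values were 6.08 and 23.2 with solvent and 4.83 and 13.6 with MS-275, with Nanog and Dppa5a nearest to 0 (-0.23 and -0.22, not past the test). Of 12 fibroblast markers, which feeder cells also express, 6 passed as higher and 0 as lower, led by Col1a1 (2.41) and Pdgfrb (1.20), with Dcn (-0.72) and Fn1 (-0.71) lowest and not past this test, and the sums were 1.60 and 2.88 against 1.77 and 2.51. On positions 6 fibroblast markers were higher and 2 lower, Fn1 (-0.39, adjusted p = 0.00152 from limma-voom with the block) and Col3a1 (-1.09, adjusted p = 0.0323). Of 8 neuron markers tested, 3 passed as higher and 0 as lower, led by Elavl3 (2.55) and Nefl (1.65), with Stmn2 (-0.48) and Rbfox3 (0.09) lowest and not past this test and with sums of 1.25 and 2.30 against 1.29 and 2.30, while Map2 was listed at 0 in both solvent libraries and at 0.00068 and 0.00019 with MS-275. On positions 4 of 9 neuron markers were higher and 1 lower. Map2, whose deposited values did not pass the filter, was among the higher (1.40, SE 0.13, adjusted p = 2.04e-07 from limma-voom with the block). Its positions did pass their filter, so values and positions differ for this gene. The cause was not tested. Stmn2 was the lower (-0.45, adjusted p = 0.00569 from limma-voom with the block). Of 9 markers tested of monoaminergic and cholinergic neurons, of which 9 of 10 are also in the lists above, 4 passed as higher and 0 as lower, led by Hdc (1.79) and Slc6a3 (0.84), with sums of 0.109 and 0.0753 against 0.180 and 0.130. On positions 5 of 6 of these markers were higher and 0 lower, beside 31.3% and 14.3% of all genes. Dbh, which defines noradrenergic cells, was listed at 0 in both solvent libraries and in MS-275 replicate 2, while Th (-0.10) and Fev (0.23) were lowest on the list and not past the test. The part of these cell types in the values of the receptor genes was not tested.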

How the data were processed

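PolyA RNA of 4 libraries (2 solvent, 2 MS-275) had been sequenced and mapped to mm9, and the authors deposited per-gene normalized expression values (a signal made with Genomatix, formula not given in the sources used here) and alignment positions. The receptor genes and all gene lists were chosen with earlier results of these data known. From the values, log2(value + 0.005) was tested with limma 3.58.1 (R 4.3.3) with a mean-variance trend over genes at 0.001 or more in at least 2 libraries, without a block, with Benjamini-Hochberg adjustment. The replicate number was added as a block in an alternative fit: the authors' column headers mark replicate 1 of both conditions alike, and deviations of same-numbered libraries from their group means correlated at r = 0.764 over 20336 genes. A fold rule (2-fold in both pairs, floor 0.001) has no test. As a further readout, distinct alignment positions on GENCODE M1 exons were tested with limma-voom over genes with at least 10 positions in 2 libraries. Both fits were tested on simulated data.

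Values were given in every library for genes with a mean of at least 0.01, genes that passed a fit and genes that met the fold rule, and, in each list, the 2 highest and 2 lowest genes tested were named. Other genes were named after their values were seen. Alternatives were other pseudocounts, filters, scalings and left-out libraries, and pseudocounts within the block and left-out libraries on positions were added after seeing the data. A lower MS-275 dose was not analysed here. Which solvent was used is not settled by the sources. The results of 1 receptor gene and 2 genes of the lists are not reported here and the figures that name receptor genes leave that gene out, while counts over the receptor genes and lists include them.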

Additional observations from a re-analysis of the deposited data

How the results depend on the processing

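Without a block, limma called 0 receptor genes as higher under either pseudocount, without a filter and under either scaling. With all libraries 11 were higher at an unadjusted p under 0.05, beside 2974 of all 20336 genes tested. Among genes with a mean of at least 0.01 it called 1 of 6 (Htr5b, 16.7%), beside 3.16% of all genes. The mean of Htr5b was 0.00198 with solvent and 0.0274 with MS-275, so it met this filter through its MS-275 values. No weight is put on this call. With the replicate block limma called 12 receptor genes, with median-ratio scaling 10, with quantile normalization 4 (14.3%, beside 13.9% of all genes), and, added after seeing the data, 12 with pseudocount 0.001 and 9 with 0.02. Positions gave 9 without and 12 with the block, and 5 to 7 with a library left out (added after seeing the data). On positions, 9 of the 19 receptor genes tested entered through the MS-275 libraries alone. Leaving out a library also leaves 1 library in its condition. No weight is put on the counts on positions, those with a library left out included. No receptor gene was called as lower. Leaving out a library with the block leaves 1 complete pair and was not run. The fold rule gave 1 (2.7%, beside 4.47% of all genes) with a floor of 0.01. With a library left out the rule was changed to 1 ratio of at least 2-fold, between the remaining library and the mean of the other group. It then gave 13 to 18 higher (35.1% to 48.6%, beside 16.1% to 25% of all genes) and 0 to 1 lower. The 18 were found without solvent replicate 1 and without MS-275 replicate 2. These counts cannot be set beside those of 2-fold in both pairs. Over all genes, the blocked calls of 4277 higher and 1314 lower became 3402 and 2370 with median-ratio scaling and 2828 and 2681 with quantile normalization. The cause was not tested.

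The median log2 difference was, with and without the block, 0.93 and 0.18 with pseudocounts 0.001 and 0.02, 0.44 with median-ratio scaling and 0.21 with quantile normalization. It was 0.36 without a filter and 0.82 at a mean of at least 0.01, beside 0.06 and 0.14 for all genes, and 0.32 to 0.71 with a library left out. On positions it was 1.52 and 1.53 without and with the block, beside 0.15 and 0.16 for all genes tested. Of the 19 receptor genes tested on positions, 9 entered through the MS-275 libraries alone, so no weight is put on these 2 medians. Directions that turned were all of genes not called: with quantile normalization Chrm1 (-0.20), Hrh2 (-0.55), Hrh3 (-0.15), Htr1b (-0.061), Htr2b (-0.25), Htr5a (-0.086) and Htr6 (-0.067), with median-ratio scaling Hrh2 (-0.14), with pseudocount 0.001 Hrh2 (-0.088) and Htr2a (0.024), and on positions Adrb1 (0.16 without and 0.045 with the block). With a library left out the ranges that spanned 0 were -0.94 to 0.32 for Adrb1, -0.32 to 0.090 for Drd2, -0.62 to 0.64 for Hrh2, -0.054 to 0.82 for Hrh3, -0.027 to 0.59 for Htr1b, -0.30 to 0.24 for Htr2a, -0.14 to 0.66 for Htr2b and -0.31 to 0.012 for Htr3b. The cause was not tested. Depth limits the genes with fewer than 10 positions.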
